A study of Arabidopsis thaliana with 4 samples.

Results

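Root tips of Arabidopsis thaliana seedlings carrying the med16-2 mutation were compared with root tips of wild-type Col-0 seedlings, both grown on low phosphate. The comparison uses 2 of the 4 RNA-seq libraries of the study, chosen by their labelled genotype and phosphate level, and covers all 33602 loci of the count tables. Col-0 low phosphate and med16-2 low phosphate seedlings were on 5 µM phosphate, and Col-0 high phosphate and med16-2 high phosphate seedlings, used here beside the low phosphate pair, were on 1 mM phosphate. All 4 groups were sampled 4 days after germination, were grown on agar plates of dilute MS medium with sucrose, and share the ecotype labelled Col 0 (CS70000). The labels give neither the kind of lesion in med16-2 nor the length of tip that was cut, and each group is 1 library made from ground root tips, so the spread between plants is unknown and no p-value is given.

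MED16 is a subunit of the tail module of Mediator, the large complex that links transcription factors on DNA with RNA polymerase II. Plants without it are known for weak induction of cold-regulated genes (its other name is SENSITIVE TO FREEZING 6), for altered jasmonate and ethylene defence and iron responses, and for root tips that keep growing on low phosphate, where wild-type primary roots stop. Phosphate shortage acts on roots in 2 ways: a systemic programme run by PHR1, which raises phosphate transporters, phosphatases and lipid-remodelling enzymes, and a local programme in the tip, in which STOP1, the malate channel ALMT1 and the ferroxidase LPR1 act with iron to stop growth.

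Counts assigned to genes were 15696333 in the Col-0 low phosphate library and 12302510 in the med16-2 low phosphate library, against 10079345 and 14266585 in the Col-0 and med16-2 high phosphate libraries. Values are given as reads or as CPM, the count scaled to a common library size with TMM factors, and a locus was measured when its mean over the 4 libraries reached 1 CPM, which held for 18692 loci, 18632 of them nuclear. The med16-2 low phosphate library stood apart in make-up. Reads aligned to more than 1 place were 36.6% of the reads listed in its file, against 6.65 to 9.27% in the other libraries, and rRNA loci took 1.38% of its gene counts, against 0.0974 to 0.173%. These shares moved with the genotype ratio at low phosphate and their part in the results was not tested. The high phosphate pair shares no library with the low phosphate pair, so its ratios are printed beside the results below.

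**Figure D1:**
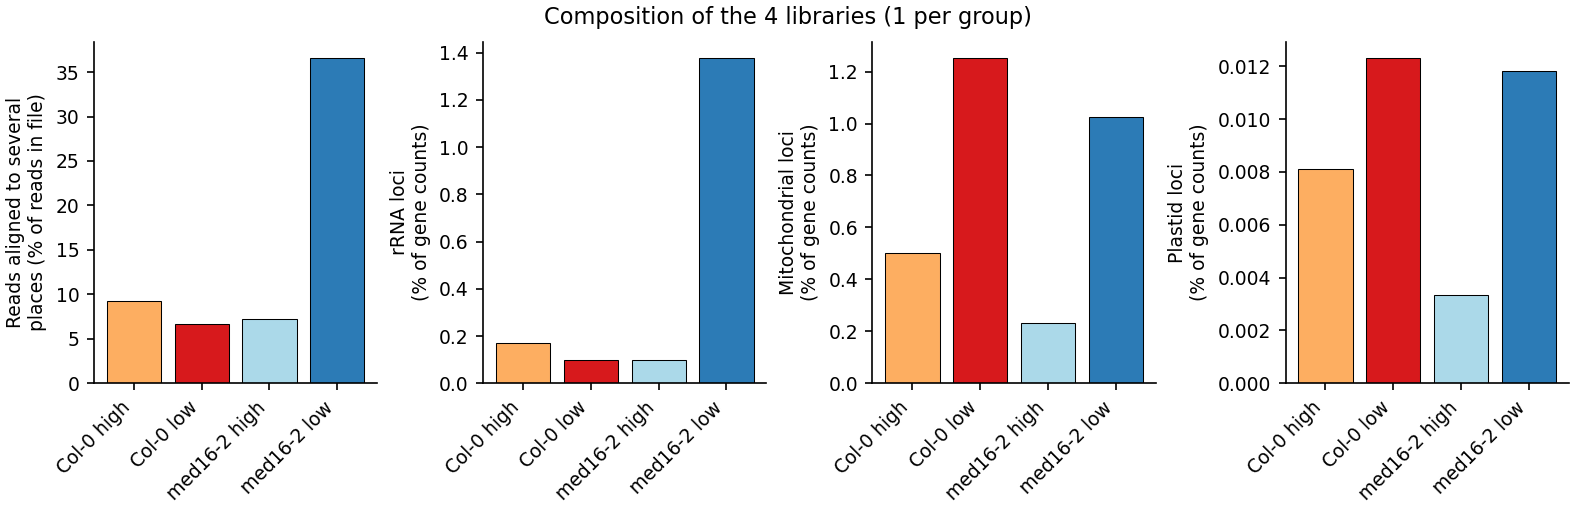
Bars give, for each of the 4 libraries (1 per group), the percent of reads aligned to several places and the percent of gene counts on rRNA, mitochondrial and plastid loci, each on its own linear axis from 0. The med16-2 low phosphate library is highest in the first panel at 36.6% and in the second at 1.38%, while the mitochondrial share is highest in Col-0 at low phosphate.

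MED16 itself, AT4G04920, had 747 reads in Col-0 and 48 in med16-2 at low phosphate, and 420 and 56 at high phosphate. The mutant's low phosphate level was 3.91 CPM against 46.8 CPM, a log2 ratio (med16-2 over Col-0) of -3.57 with a 95% interval of -4.03 to -3.16. Intervals of a ratio are exact (Clopper-Pearson) and cover counting error only. Both libraries labelled med16-2 were low in MED16 reads, and neither was at 0. None of the 25 measured genes for other Mediator subunits and their kinase module met the size rule given next, and their median log2 ratio was 0.10.

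Genes lower in the mutant outnumbered genes higher. By the size rule used throughout, a ratio of at least 2-fold whose interval excludes equality, 1145 nuclear genes (6.15% of those measured) were lower in med16-2 at low phosphate and 177 (0.95%) were higher, so that lower genes made up 86.6% of the genes that met it. At high phosphate the rule called 6.18% of nuclear genes lower and 0.714% higher. Counts of list members below can be read against these shares. Those at low phosphate were larger among low-level genes. At 4-fold or more the counts were 363 lower and 31 higher, and at 16-fold or more 47 lower and 3 higher. The median log2 ratio of all measured nuclear genes was 0.01, with quartiles of -0.27 and 0.21, so most genes lay near equality. Low-level genes made up much of both sets: of 3364 genes with a mean of 1 to 5 CPM, 566 were lower and 126 higher, and of 2156 genes at 100 CPM or more, 32 were lower and 3 higher. With genes under a mean of 5 CPM left out, 579 genes were lower and 51 higher.

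**Figure D2:**
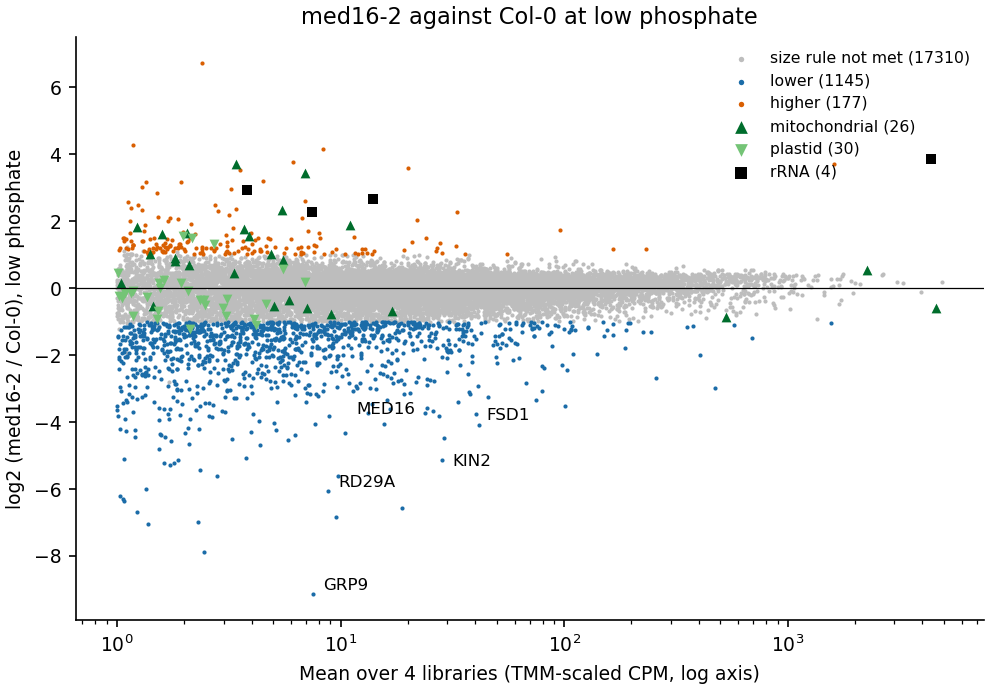
Each point is a measured locus, with its mean TMM-scaled CPM over 4 libraries on a log axis and its log2 ratio of med16-2 over Col-0 at low phosphate on the linear axis. Blue and orange mark the 1145 lower and 177 higher nuclear genes, grey the nuclear genes that did not meet the size rule, and triangles and squares the mitochondrial, plastid and rRNA loci, the last all above 2 on the log2 scale.

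The genes with the largest ratios had few reads in the mutant at low phosphate. GRP9, a glycine-rich protein gene, had 364 reads in Col-0 at low phosphate, 71 at high phosphate and 0 in both mutant libraries. With each count of 0 replaced by a floor of 3 reads (0.245 CPM in the mutant's low phosphate library), GRP9 was 93.2-fold lower at low phosphate. At high phosphate it was 34.6-fold lower by the same floor. The exact intervals, which use the counts of 0, start at 75.4-fold at low and 27.4-fold at high phosphate and have no upper limit. The next measured gene after GRP9 in locus order, AT2G05510, is of the same family. It had 1385 reads in Col-0 and 47 in med16-2 at low phosphate, 22.6-fold lower, and 237 and 21 at high phosphate. AT5G37990, annotated as a methyltransferase, had 1037 reads against 8, and AT5G57785, of unknown function, 221 against 1 (170-fold, interval 30.2 to 6737-fold). The expansin-like gene EXLB1 had 229 reads against 8, and the amino acid transporter genes UMAMIT20 and UMAMIT17 had 285 against 4 and 220 against 8. Of the 12 genes with the largest ratios among those with a mean of at least 5 CPM at low phosphate, 10 also met the size rule as lower at high phosphate. The others, OSM34 and AT5G37690, had few reads in either high phosphate library. OSM34, an osmotin of the pathogenesis-related type, had 159 reads in Col-0 and 2 in med16-2 at low phosphate, and 8 and 4 at high phosphate. AT5G37690, an esterase of the SGNH type, had 193 and 6 at low phosphate, and 3 in each high phosphate library. AT2G05510 and GRP9 are of the same family, so reads from one could be split with the other.

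The cold-regulated genes gave some of the largest ratios in the data. Proteins of the CBF family bind a DNA element with the core CCGAC and switch on these genes, many of which encode hydrophilic protective proteins. Of 10 measured genes of the list, 5 were lower in med16-2 at low phosphate and none higher, with a median log2 ratio of -1.09, and 9 were lower at high phosphate, with a median of -2.23. RD29A had 306 reads in Col-0 at low phosphate, 152 at high phosphate and 3 in each mutant library, which put it 78.4-fold lower at low phosphate (interval 26.6 to 382-fold). KIN2 had 792 reads against 17, 35.8-fold lower (22.2 to 61.8-fold), and its near-identical neighbour KIN1 73 against 1 (56.1-fold, 9.76 to 2245-fold), though reads of these 2 genes may be shared between them. The dehydrin LTI30 was at 68.6 against 7.17 CPM, and the membrane protein gene COR413-PM1 at 205 against 85.7 CPM. The abundant dehydrins COR47 and ERD10 were at 724 and 240 CPM in Col-0 and 425 and 128 CPM in med16-2, under the 2-fold limit. The upstream factors CBF1 and CBF2 differed less at low phosphate, with 18 reads against 11 and 143 against 72, and did not meet the rule. Both are among the 10 list genes, of which 9 were lower at high phosphate, so CBF1, CBF2 or both met the rule there.

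The stretches before the starts of RD29A and LTI30, whose levels were among the most reduced, hold copies of the CCGAC core, and that before KIN2 holds none in this window. They are shown 5′ to 3′ from 250 bases before the annotated start of each gene, read from the RefSeq TAIR10.1 assembly on the gene's strand, with CCGAC on either strand in capitals. RD29A is from chr5:21240467-21240716, LTI30 from chr3:18940393-18940642 and KIN2 from chr5:5211469-5211718, all on the plus strand.
RD29A: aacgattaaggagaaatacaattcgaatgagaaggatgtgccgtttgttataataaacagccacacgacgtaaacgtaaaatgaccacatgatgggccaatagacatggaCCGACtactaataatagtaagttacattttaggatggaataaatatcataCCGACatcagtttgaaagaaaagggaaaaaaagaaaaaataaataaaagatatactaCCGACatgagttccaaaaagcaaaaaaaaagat
LTI30: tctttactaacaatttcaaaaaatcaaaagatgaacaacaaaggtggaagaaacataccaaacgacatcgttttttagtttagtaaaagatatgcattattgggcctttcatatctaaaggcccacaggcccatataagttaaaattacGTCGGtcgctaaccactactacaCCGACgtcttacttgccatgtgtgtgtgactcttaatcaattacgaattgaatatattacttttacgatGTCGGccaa
KIN2: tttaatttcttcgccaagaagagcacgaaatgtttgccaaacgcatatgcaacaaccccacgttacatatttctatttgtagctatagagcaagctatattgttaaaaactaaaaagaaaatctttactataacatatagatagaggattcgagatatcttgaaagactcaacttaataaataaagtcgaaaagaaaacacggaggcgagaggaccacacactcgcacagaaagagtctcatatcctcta
RD29A and LTI30 each hold 3 copies here, starting 140, 90 and 33 bases before the start of RD29A and 101, 78 and 9 bases before that of LTI30. Over windows from 250 bases before to 50 after the start, 4 of the 10 cold genes (40%) held CCGAC on either strand, against 16.2% of 18271 measured protein-coding genes. The core was in 3 of the 5 lower genes and in 1 of the 5 that did not meet the rule. KIN1 and KIN2, with larger ratios than LTI30, both held none. A match of letters is a description of the window and not a mapped binding site.

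Genes of the systemic phosphate starvation programme were on, but lower, in the mutant. Of 27 measured genes, 13 were lower in med16-2 at low phosphate and none higher, 26 had a log2 ratio below 0, and the median was -0.85. RNS1, a ribonuclease that frees phosphate from RNA, was at 58.1 against 6.52 CPM (8.91-fold lower, interval 7.09 to 11.3). The phosphatase gene PECP1 was at 126 against 21.2 CPM, 5.93-fold lower, and the phospholipase C gene NPC4 at 26.9 against 6.52 CPM, 4.13-fold lower. AT4, a non-coding RNA that sequesters miR399, was at 565 against 164 CPM, and its relative IPS1 at 67.5 against 29.8 CPM. The phosphate sensors of the SPX family differed among themselves: SPX3 (14.5 against 4.24 CPM) and SPX1 (419 against 175 CPM) were lower, and SPX2 and SPX4, with log2 ratios of -0.53 and 0.29, did not meet the rule. The phosphate exporter PHO1, the acid phosphatase PAP17 and the lipid enzymes MGD3 and PLDZ2 were lower by 2.17, 2.78, 2.29 and 2.19-fold. The main uptake transporter PHT1;1 was at 221 CPM in Col-0 and 212 CPM in med16-2, and PHT1;4 at 279 and 167 CPM. In med16-2 the members' summed level was 540 CPM at high and 1806 CPM at low phosphate, and in Col-0 it was 711 and 3533 CPM. At high phosphate 9 members were lower in the mutant and the median was -0.72. Fewer cells of a type and less RNA per cell cannot be told apart in whole root tips, here or in any list below.

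The element GNATATNC, to which PHR1 binds, was found in the windows of 14 of these 27 genes (51.9%) and of 6.23% of all 18271 protein-coding windows. It reads alike on both strands. The 250 bases before SPX3 (chr2:18606160-18606409, plus strand, TAIR10.1) and before AT4 (chr5:894332-894581, plus strand) are shown as examples of lower genes that hold the element, which is in capitals. It was in 7 of the 13 lower genes and in 7 of the 14 that did not meet the rule. PECP1, lower by 5.93-fold, held none in this window, and RNS1 and NPC4 held 1 each.
SPX3: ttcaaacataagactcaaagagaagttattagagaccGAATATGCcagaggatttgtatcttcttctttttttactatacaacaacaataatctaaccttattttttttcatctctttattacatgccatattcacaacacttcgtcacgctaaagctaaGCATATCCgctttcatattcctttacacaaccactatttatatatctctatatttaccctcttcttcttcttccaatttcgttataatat
AT4: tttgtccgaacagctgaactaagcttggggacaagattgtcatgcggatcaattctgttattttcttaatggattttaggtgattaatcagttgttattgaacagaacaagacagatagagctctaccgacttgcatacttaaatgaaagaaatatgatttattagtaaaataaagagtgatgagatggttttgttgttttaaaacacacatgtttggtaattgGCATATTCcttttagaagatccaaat
SPX3 holds copies starting 213 and 90 bases before its start, and AT4 holds 1, starting 26 bases before.

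Regulators of the systemic programme were at like levels in the genotypes, with 1 exception. PHO2, the ubiquitin-conjugating enzyme that limits phosphate transporters and is itself a target of miR399, was at 75.4 CPM in Col-0 and 32.9 CPM in med16-2 at low phosphate, 2.29-fold lower. At high phosphate it was at 89.3 and 95.1 CPM. The transcription factors PHR1 and PHL1 were at 52.4 and 17.9 CPM in Col-0 and 47.6 and 16.7 CPM in med16-2. None of the other 8 measured regulators met the size rule, and the median of the 9 was -0.14.

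In the local pathway of the tip, 1 of 16 measured genes was lower and none higher, with a median log2 ratio of -0.22. That 1 gene is 6.25% of the list, against 6.15% lower among all nuclear genes. The ferroxidase LPR1 was at 10.8 CPM in Col-0 and 4.89 CPM in med16-2, 2.22-fold lower (interval 1.64 to 3.02), and it was also lower at high phosphate, at 12.2 and 3.61 CPM. ALMT1, which exports malate, was at 197 CPM in Col-0 and 129 CPM in med16-2 at low phosphate, 1.53-fold lower, and at 42.7 and 17.9 CPM at high phosphate, where it met the rule. STOP1, the zinc-finger factor that switches on ALMT1, was at 116 and 129 CPM. The vacuolar dicarboxylate transporter TDT was 1.79-fold lower, while LPR2 and PDR2 had log2 ratios of 0.01 and 0.18. At high phosphate 3 of the 16 genes were lower and none higher, with a median of -0.15.

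Iron genes differed by branch. Of 17 measured genes of iron uptake and deficiency, 3 were lower and none higher, all 3 at low levels: the factor BHLH39 with 31 reads against 2, the iron transporter IRT1 with 17 against 2 (6.53-fold, 1.55 to 58.3-fold), and the nicotianamine synthase NAS2 with 132 against 26. None of these 3 had a mean of 5 CPM over the 4 libraries, and with that limit no member of the list met the rule. FIT, the master factor of uptake, was at 12.7 CPM in Col-0 and 24.2 CPM in med16-2, 1.90-fold higher, and so just under the limit. At high phosphate none of the 17 uptake and deficiency genes was lower and 1 was higher, with a median of 0.06. Ferritin transcripts, which accompany iron build-up, were alike at low phosphate, FER1 at 228 and 222 CPM and FER4 at 27.9 and 25.6 CPM. At high phosphate FER1 was at 76.8 CPM in Col-0 and 36.5 CPM in med16-2, and 5 of the 7 iron storage genes were lower there against 1, the transporter-like VTL2, at low phosphate. FSD1, a plastid iron superoxide dismutase that is made when copper is scarce, had 132 reads against 7 at low phosphate (14.5-fold lower, interval 6.84 to 36.7), and 1323 and 267 at high phosphate. The copper and manganese enzymes CSD1, CSD2 and MSD1 had log2 ratios of -0.09, 0.08 and 0.13, and 1 of the list's 11 genes, FSD1, met the rule.

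Among genes of nitrate and sulfate acquisition, 8 of 19 were lower and none higher, with a median of -0.50. The sulfur-deficiency markers led them: LSU2 with 182 reads against 14 (9.99-fold lower), LSU1 with 59 against 9 and SDI1 with 120 against 30. Genes of sulfate reduction, APR1 and APR3, were lower by 2.33 and 2.15-fold. NRT1.5, which loads nitrate into the xylem, was at 88.3 CPM in Col-0 and 27.7 CPM in med16-2, and the ammonium transporter AMT1;2 at 34.6 and 13.6 CPM. The nitrate transceptor NRT1.1 (181 and 234 CPM) and the sulfate transporter SULTR1;2 (785 and 613 reads) did not meet the rule. Of the 8 lower genes, 6 were also lower at high phosphate.

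Nuclear genes for photosynthesis, used as markers of green shoot tissue, were low in root tips and lower in the mutant throughout. All 13 measured members met the size rule at both phosphate levels, with medians of -2.31 and -3.35, and their summed level was 257 CPM in Col-0 and 40.3 CPM in med16-2 at low phosphate. The light-harvesting gene LHB1B2 had 1326 reads against 60, LHCB1.3 163 against 7, and RBCS1A, the small subunit of Rubisco, 65 against 1. Light- and clock-related genes differed less: 4 of 14 were lower, among them CCA1 (87 reads against 19) and ELIP1 (190 against 57), while GI, LUX and HY5 had log2 ratios of -0.05, -0.04 and -0.15. The part that green tissue had in the lists of cold, light and flavonoid genes was not tested.

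Flavonoid genes differed by step. The early phenylpropanoid genes PAL1, PAL2, C4H and 4CL1 were at 344 to 1064 CPM in Col-0 and had log2 ratios of -0.37 to -0.68, under the limit. The flavonol branch was much lower: FLS1, flavonol synthase, was at 93.2 against 8.15 CPM, 11.4-fold lower (interval 9.33 to 14.1), CHI had 415 reads against 30, CHS was at 615 against 77.7 CPM, and F3'H had 76 reads against 7. The factor MYB12, which switches on these genes in roots, was at 13.9 against 4.57 CPM, and UGT84A1, which makes sinapate esters, had 40 reads against 3. In all, 7 of 12 members were lower and none higher at low phosphate, with a median of -1.69, and the same 7 were among 9 lower at high phosphate, with a median of -3.18.

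**Figure D3:**
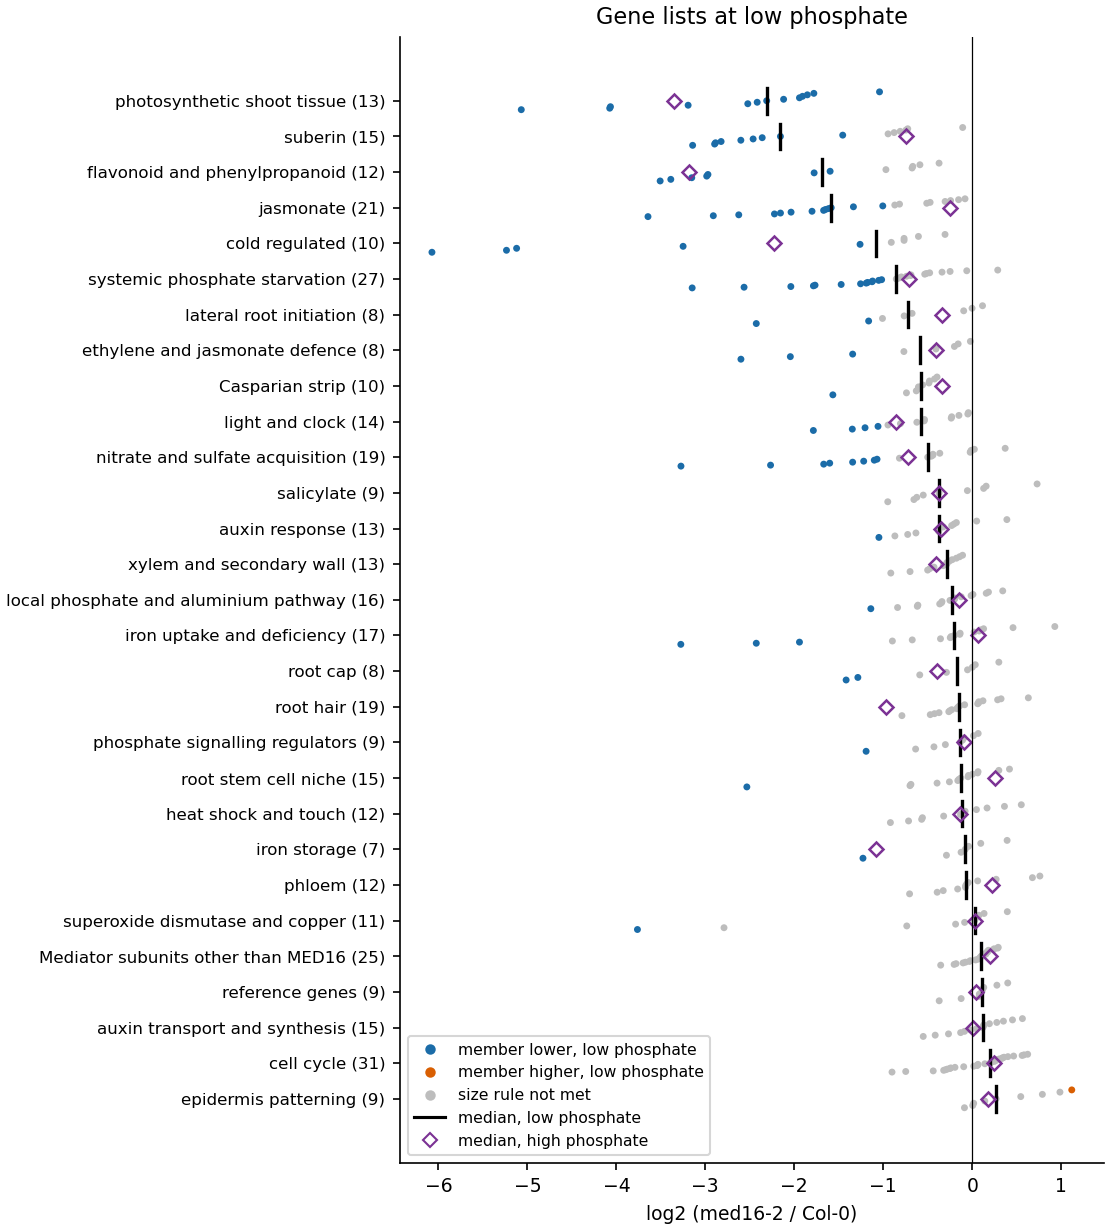
Each row is a list of genes, with the number measured in brackets, ordered by its median log2 ratio of med16-2 over Col-0 at low phosphate (black bar), and each dot is a member at low phosphate, coloured where it met the size rule. Open diamonds give the list's median at high phosphate. It lies further left than the black bar for several lists, among them photosynthetic, flavonoid, cold, iron storage and root hair genes. For suberin and jasmonate genes it lies nearer 0.

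Jasmonate genes were lower in the mutant at low phosphate. JAZ proteins repress jasmonate responses and their genes are switched on by the hormone, so they serve as a readout of it. Of 21 measured genes, 13 were lower in med16-2 at low phosphate and none higher, with a median of -1.59. At high phosphate 3 were lower, with a median of -0.25. The difference between the phosphate levels has no replicate behind it and was not tested. AOC1, an enzyme of jasmonate synthesis, had 89 reads in Col-0 and 5 in med16-2 at low phosphate, and 15 and 22 at high phosphate, though it may share reads with its near copy AOC2. LOX3, another synthesis gene, was at 31.4 against 5.05 CPM, 6.21-fold lower (interval 4.76 to 8.22), and at 18.3 and 9.59 CPM at high phosphate. Among repressors, JAZ8 had 112 reads against 11, JAZ9 361 against 59 and JAZ10 1353 against 331. MYC2, the factor that JAZ proteins hold back, was at 254 and 240 CPM. The G-box CACGTG, bound by MYC2, was in 6 of these 21 windows (28.6%) and in 8.65% of all windows. It was in 4 of the 13 lower genes and in 2 of the 8 that did not meet the rule. Of 8 genes of joint ethylene and jasmonate defence, 3 were lower: the factor ERF1 (35 reads against 4), the chitin-binding HEL (94.0 against 22.7 CPM) and the chitinase CHI-B (12.9 against 5.05 CPM). None of 9 salicylate genes met the rule.

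Suberin genes had the second lowest median of the 29 lists at low phosphate. Suberin is the waxy polymer laid down in older endodermis, and the list's genes make, export or regulate it. Of 15 measured genes, 9 were lower and none higher, with a median of -2.16, and with genes under a mean of 5 CPM left out the count was 4. The fatty acid hydroxylase CYP86A1 had 396 reads against 34 (8.95-fold lower, interval 6.30 to 13.1), the exporter ABCG6 382 against 39, and the factor MYB93 62 against 6. At high phosphate each of these 3 had 9 reads or fewer in either genotype and did not meet the rule. The list's median there was -0.75, and 3 other members were lower: KCS2 (100 reads against 39), CYP86B1 (20 against 14) and GPAT7 (6 against 1). The feruloyl transferase ASFT, the most abundant member, was at 126 and 71.9 CPM. Genes of the Casparian strip, the barrier formed earlier in the same cells, all had log2 ratios below 0 (10 of 10, median -0.58), but 1, CASP5, met the rule, at 30.8 against 10.4 CPM.

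**Figure D4:**
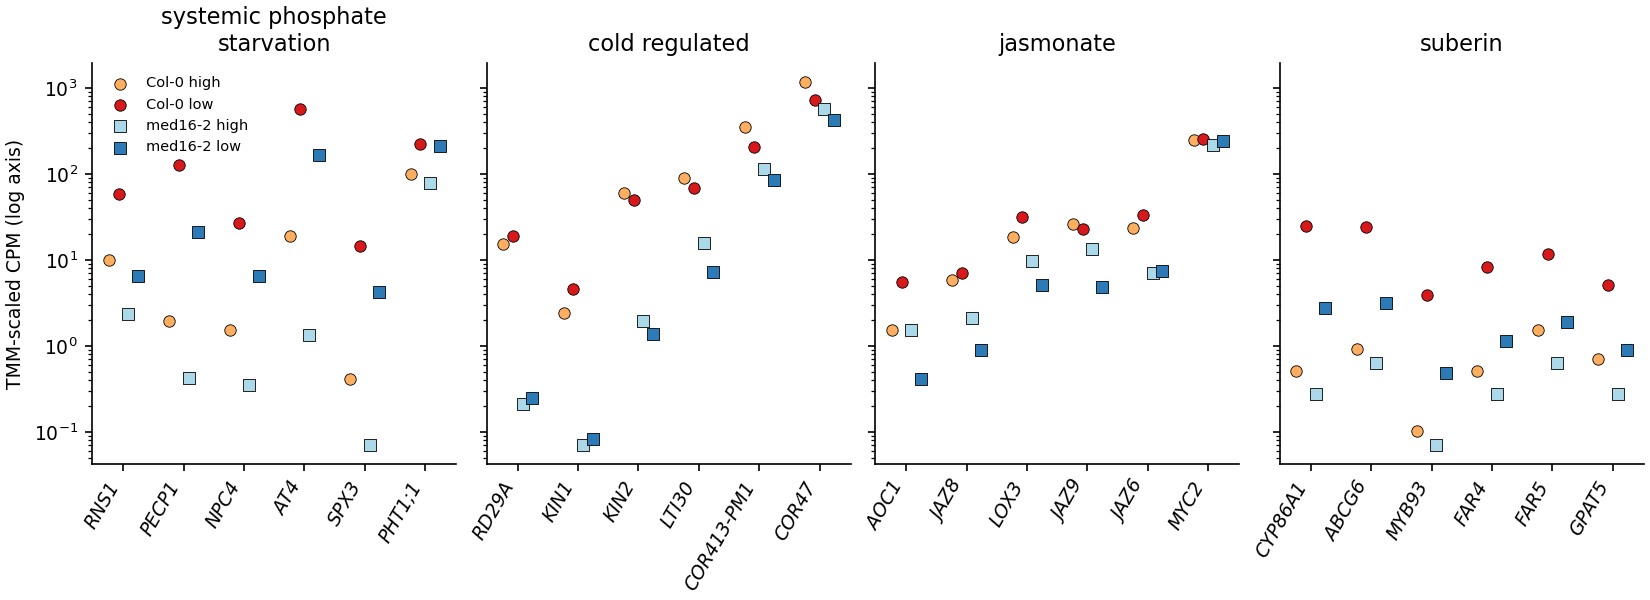
TMM-scaled CPM in each of the 4 libraries, on a log axis, for 6 members of each of 4 lists, with circles for Col-0, squares for med16-2 and the darker shade of each for low phosphate. RD29A, KIN1 and KIN2 are low in both mutant libraries, while the 6 suberin genes are highest in Col-0 at low phosphate.

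Most markers of other cell types did not meet the rule. No member of the xylem list (13 measured), the phloem list (12) or the root hair list (19) met the rule at low phosphate, and their medians were -0.29, -0.07 and -0.15. All 13 xylem genes were below 0, led by AHP6 (40 reads against 16) and TMO5 (140 against 66). The root hair list had a median of -0.97 at high phosphate, with 9 members lower there. Of 8 root cap genes 2 were lower, the nuclease BFN1 (19.5 against 7.99 CPM), which degrades DNA in dying cap cells, and AT1G65570 (223 against 83.3 CPM). In the stem cell niche, WOX5, which marks the quiescent centre, had 56 reads against 7 at low phosphate (log2 ratio -2.53, with an interval that ends at -1.48 on the side of equality), and 5 in each genotype at high phosphate. The other 14 niche genes, among them PLT1 and PLT2, SHR and SCR, did not meet the rule, and the list's summed level was 331 CPM in Col-0 and 302 CPM in med16-2. Cell cycle genes were at like levels, with none of 31 meeting the rule and a median of 0.20. PCNA1, the DNA polymerase clamp, stood at 31.1 and 47.9 CPM. None of 15 auxin transport and synthesis genes met the rule either, and 1 of 13 auxin response genes, IAA3, was 2.07-fold lower. In lateral root initiation, PUCHI (38 reads against 5) and MAKR4 (13.2 against 5.87 CPM) were lower among 8 genes. None of 12 heat shock and touch genes or 9 reference genes met the rule, with medians of -0.12 and 0.11.

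Several large families held lower members. Among all measured nuclear genes the lower share was 16.8% at a mean of 1 to 5 CPM, 6.58% at 5 to 20 CPM and 2.26% at 20 to 100 CPM. No share matched for level was computed for the families, so their counts are given as values. Of 30 UMAMIT amino acid transporter genes 13 were lower and none higher, with a median of -0.91; leaving out genes under a mean of 5 CPM, 8 were lower. Besides UMAMIT20 and UMAMIT17, these included UMAMIT31 (150 reads against 8) and UMAMIT29 (54 against 1). Of 54 class III peroxidases 16 were lower and 1 higher; AT5G19890 was lower at both phosphate levels (589 reads against 27 at low, 214 against 24 at high), whereas AT2G35380 and AT1G68850, with 184 against 14 and 167 against 13 reads, had 4 or fewer reads in each high phosphate library. Among 40 glutathione transferases 12 were lower and 1 higher, and GSTF6 (94.6 against 6.69 CPM) and GSTF2 (82.6 against 9.21 CPM) were among the lower ones. At high phosphate GSTF6 did not meet the rule, with a log2 ratio of 0.72. Its close copy GSTF7, lower at low phosphate, met the rule as higher at high phosphate, with a log2 ratio of 1.05. Of 50 WRKY factors 10 were lower, led by WRKY28 (70 reads against 2), and of 129 cytochromes P450 24 were lower and 2 higher, led by CYP706A1 (72 reads against 1). The tonoplast aquaporins TIP2;2 and TIP2;3 (350 against 54.8 CPM and 22.6 against 2.53 CPM) and the plasma membrane aquaporin PIP2A (901 against 320 CPM) were lower among 24, and NIP3;1 (24 reads against 38) was higher. Expansins, xyloglucan endotransglucosylases and UGT glycosyltransferases had 4 of 21, 3 of 23 and 15 of 94 members lower. Among UGT genes 2 were higher, UGT75B1 (9 reads against 27) and AT1G64910 (38 against 81). Ribosomal protein genes had a median of 0.32 over 282 genes, and 1 met the rule, as higher. None of 38 histone genes met it.

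Genes higher in med16-2 were fewer and their ratios smaller. Of the 177, 159 were protein-coding in the annotation and 12 were pseudogenes, against 18271 and 191 of all 18632 measured nuclear genes. GL2, the homeobox factor that blocks hair fate in the epidermis, was at 14.0 CPM in Col-0 and 30.5 CPM in med16-2, 2.17-fold higher (interval 1.84 to 2.58), and was the 1 gene of 9 in the epidermis list to meet the rule. Its activator WER was at 21.1 and 41.8 CPM, 1.98-fold higher, and MYB23, a relative of WER, 1.73-fold higher, both under the limit. AT5G35935, annotated as a pseudogene, had 43 reads against 401 at low phosphate and 21 against 611 at high phosphate, 12.1 and 19.9-fold higher. Other higher genes with the same sign at high phosphate were the receptor-like kinase gene AT1G29740 (35 reads against 116), the serine carboxypeptidase-like SCPL15 (107 against 339) and AT1G62500, of a lipid-transfer protein family (44 against 112). AT2G41810, of unknown function, had 222 reads against 822 at low phosphate, 4.82-fold higher, and 336 against 251 at high phosphate. MIPS1, an inositol phosphate synthase named here after its values were seen, was at 88.6 and 199 CPM at low phosphate and met the rule at high phosphate too.

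Part of the higher set lay in loci that share sequence with rRNA or organelle genomes. Among nuclear genes 23 measured loci had at least 100 bases at 95% identity or more with such sequence; 9 of them were higher and 1 lower, and without them the counts were 168 higher and 1144 lower. AT2G01021, which overlaps rRNA sequence, had 6129 reads in Col-0 and 61154 in med16-2 at low phosphate, and 6474 and 6302 at high phosphate. AT2G01008, AT3G41762 and AT2G16586, which also share rRNA sequence, were 6.20, 4.62 and 3.36-fold higher, and AT2G07671, a copy of a mitochondrial ATP synthase gene, 9.48-fold.

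The rRNA and organelle loci themselves were set apart from these counts. All 4 measured rRNA loci were higher in the med16-2 low phosphate library, with a median log2 ratio of 2.80, and the 18S locus AT3G41768 had 15109 reads in Col-0 and 168672 in med16-2, 14.5-fold higher, against 17290 and 13872 at high phosphate. Of 26 measured mitochondrial loci 11 were higher and none lower at low phosphate, with a median of 0.82, whereas 16 were lower and none higher at high phosphate, with a median of -1.29. The mitochondrial loci with most reads did not meet the rule at low phosphate and differed in direction: ATMG00020 was at 8452 CPM in Col-0 and 5574 CPM in med16-2, ATMG00030 at 1026 and 570 CPM, and ATMG01390 at 2707 and 3945 CPM. Mitochondrial loci together took 1.25% of gene counts in Col-0 and 1.03% in med16-2. Of 30 plastid loci 3 were higher and 2 lower at low phosphate, with a median of -0.24, and 19 were lower and none higher at high phosphate, with a median of -1.37. Their summed share at low phosphate was 0.0123% for Col-0 and 0.0118% for med16-2.

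The genotype ratios of the low and high phosphate pairs, measured in separate libraries, largely ran the same way for lower genes. Of the 1145 genes lower at low phosphate, 1021 (89.2%) had a log2 ratio below 0 at high phosphate, against 47.8% of all measured nuclear genes, and 586 (51.2%) met the size rule there, against the 6.18% of all nuclear genes. Their median log2 ratio was -1.55 at low and -1.08 at high phosphate. Of these 1145 genes 566 had a mean of 1 to 5 CPM. No share matched for level was computed, for them or for the higher genes. Of the 177 higher genes, 126 (71.2%) were above 0 at high phosphate, against 52.2% of all measured nuclear genes, and 27 (15.3%) met the rule there, against 0.714%. Across all 18632 genes the ratios correlated with Pearson's r of 0.625 and Spearman's rho of 0.558, given as a description because genes of a library share its depth and make-up.

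**Figure D5:**
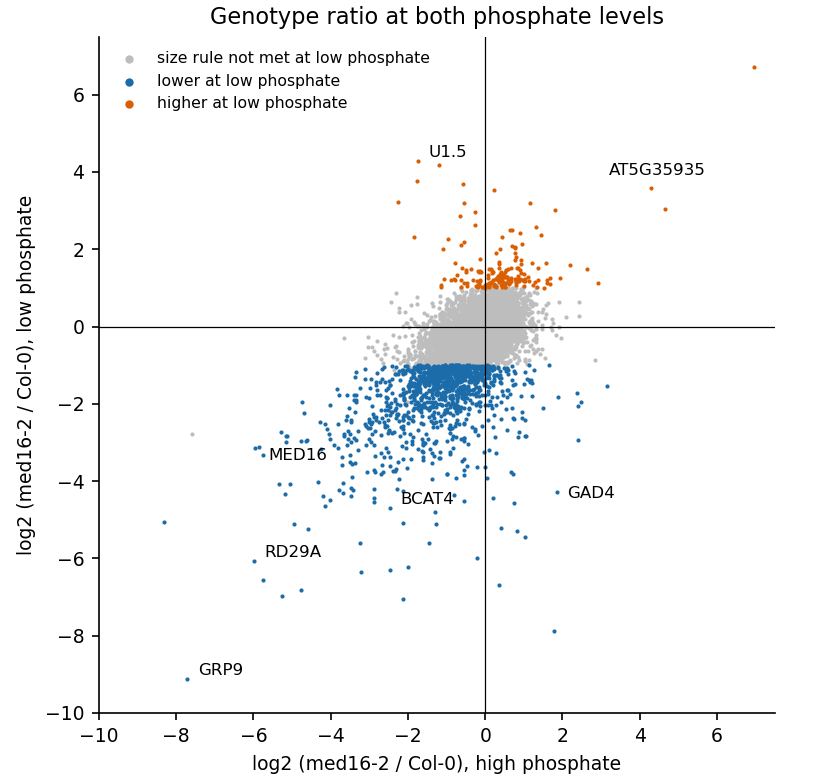
Each point is a measured nuclear gene, with its log2 ratio of med16-2 over Col-0 at high phosphate on the horizontal and at low phosphate on the vertical axis, coloured by the size rule at low phosphate. Most blue points lie left of 0, RD29A and MED16 far to the lower left, while GAD4 and U1.5 lie in the opposite quadrants.

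Opposite calls at the 2 phosphate levels were few. They came to 20 genes, 13 lower at low and higher at high phosphate and 7 the reverse. GAD4, a glutamate decarboxylase gene, had 190 reads in Col-0 and 7 in med16-2 at low phosphate, 20.9-fold lower, and 7 and 39 at high phosphate, 3.81-fold higher. AT1G14120, of an oxygenase family, had 84 and 8 reads at low phosphate and 1 and 11 at high phosphate. In the reverse direction, the locus U1.5 (AT1G08115), annotated as a small nuclear RNA, had 2 reads in Col-0 and 37 in med16-2 at low phosphate (24.1-fold, 6.21 to 206-fold), and 12 and 5 at high phosphate. The non-coding RNA AT1G15405 and the locus AT4G06477 were 13.8 and 18.4-fold higher at low phosphate, with 21 reads against 223 and 20 against 283.

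Lower genes also occurred next to each other when unmeasured loci are passed over. Along the chromosomes, 14 runs of 3 or more neighbouring measured genes were all lower at low phosphate. They held 44 of the 1145 lower genes, and 1 run was all higher, from 177 higher genes. How many runs such totals give without clustering was not computed. The longest had 4 genes; one of them is the cluster of IGMT1 to IGMT4, methyltransferases of indole glucosinolates, lower by 1.65 to 2.98 on the log2 scale. Another run of 4 started at PSY1, and runs of 3 held GSTU3 to GSTU5, and ERF1 with TDR1 and MYB15. Runs of related genes may share reads between copies.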

How the data were processed

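RNA was taken from root tips of 4 groups of seedlings, 1 library each, and made into mRNA libraries that do not keep strand, from 5 µg of total RNA, per the labels' protocols. The deposited values are raw counts of reads per gene made by the authors; the submitters' processing notes name Trimmomatic 0.35, TopHat2 2.0.9 and HTSeq 0.6.0 and the build TAIR10. The sources used here state no further settings. Without strand, reads of a gene and an overlapping antisense gene cannot be told apart. The 5 lines that name no gene hold 9.89 to 42.1% of the reads listed and were left out of library sizes.

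Counts were scaled with edgeR 4.0.16 TMM factors over the 4 libraries (R 4.3.3) and loci were kept when their mean reached 1 CPM. Log2 ratios add 0.5 to each count. With 1 library a group no test across plants was possible, and a size rule was used in its place: at least 2-fold, with an exact 95% interval of the ratio, counting error only (SciPy 1.17.1), that excludes equality. It was run on simulated counts that held counting error only, which cannot show how it behaves with spread between plants. A count of 0 was taken as a floor of 3 counts, 0.188 to 0.305 CPM per library. Of the loci, 32835 matched the RefSeq TAIR10.1 annotation, which gave names, products and promoter windows; 20 list symbols were not in it. Loci sharing organelle or rRNA sequence were found with BLAST 2.17.0.

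The 29 gene lists (476 entries, 407 measured), the 11 families and the comparison itself were chosen with earlier results of these data known. Genes were named by a rule: MED16; the 12 nuclear genes of largest ratio each way with a mean of at least 5 CPM at low phosphate; up to 4 members of each list; up to 6 opposite calls; and up to 4 organelle or rRNA loci. Other genes were named after their values were seen, for their known role or for contrast. Alternatives were other scalings, among them DESeq2 1.42.0 size factors, and other filters, intervals, pseudocounts and size limits.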

Additional observations from a re-analysis of the deposited data

Results flagged for a closer look

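Some named genes met the size rule in opposite directions at the 2 phosphate levels. With 1 library a group this difference was not tested between plants, and intervals cover counting error only. The log2 ratio at low phosphate minus that at high phosphate was -6.14 (interval -7.68 to -4.59) for GAD4 and -5.32 (-7.98 to -2.67) for AT1G14120. It was 6.02 (3.67 to 8.37) for U1.5, 5.53 (4.48 to 6.58) for AT1G15405, 5.48 (4.29 to 6.67) for AT2G07671 and 5.37 (4.50 to 6.23) for AT4G06477. The last 4 were all higher in the med16-2 low phosphate library, and AT2G07671 shares sequence with the mitochondrial genome.

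The lines of the count files that name no gene, which no comparison uses, also set that library apart. Reads aligned to more than 1 place were 36.6% of the reads listed, against 6.65% in Col-0 at low phosphate, and reads in no annotated feature were 4.43%, against 1.31%. Their part in the gene ratios was not tested.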

How the results depend on the processing

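The counts of 177 higher and 1145 lower nuclear genes at low phosphate stayed within 1.5 times under other scalings (165 to 179 higher, 1167 to 1209 lower), a pseudocount of 5 (149 and 993), no filter (251 and 1457), a filter on the low phosphate libraries (179 and 1188) and a 99% interval (146 and 1101). A mean of at least 5 CPM left 51 higher and 579 lower genes, and a 1.5-fold limit gave 589 and 2209. Leaving out loci that share organelle or rRNA sequence, chosen after seeing the data, gave 168 and 1144. The share of lower genes below 0 at high phosphate was 89.2%, and 93.3% at 5 CPM or more. Scalings shifted the median of all genes by at most 0.03 on the log2 scale. The 146 genes put through 6 alternatives (876 values) kept their direction and side of the size rule; genes named after their values were seen were not all among them. Of the list counts 686 were within 1.5 times and 34 were not, and of the list medians 327 moved by at most 0.1 and 33 by more; the median of the superoxide dismutase and copper list changed sign, from 0.03 to -0.09 without a filter and to -0.003 by total counts. No paired analysis was possible because each group has 1 library. Depth limits low genes most: for means of 1 to 5 CPM the median interval reached 0.73 either side on the log2 scale, against 0.08 at 100 CPM or more.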

Other observations

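Glucosinolate genes, a list made after their values were seen and so given as values, were mostly lower in med16-2 at low phosphate. Glucosinolates are sulfur-rich defence compounds of the cabbage family. Of 23 measured genes 11 were lower and none higher, 22 had a log2 ratio below 0, and the median was -0.99; at high phosphate 6 were lower, with a median of -0.44. In the methionine-derived branch, BCAT4, which starts the chain extension, had 253 reads in Col-0 and 7 in med16-2, MAM1 138 against 7, IMS2 560 against 32 and CYP83A1 418 against 44. In the tryptophan-derived branch all 4 IGMT genes, near copies that may share reads, were lower, with 56 reads against 5 for IGMT1 and 357 against 42 for IGMT3, while CYP79B2 and CYP83B1 had 2218 against 1378 and 4746 against 2959 reads, under the limit. The regulators MYB28 and MYB34, of the methionine and tryptophan branches, had 387 against 198 and 2817 against 1464 reads and did not meet the rule.

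Among annotated non-coding classes, 3 of 9 measured microRNA loci were lower in med16-2 at low phosphate, and the same 3 were lower at high phosphate. MIR163 had 204 reads in Col-0 and 28 in med16-2 at low phosphate, and 318 and 75 at high phosphate; MIR414 had 160 and 19, and 49 and 16. MIR824 had 100 and 38, and 72 and 37. Of 19 small nucleolar RNA loci 2 were higher and 1 lower at low phosphate, and their median log2 ratio was 0.07.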
